A study of Mus musculus with 12 samples.

Results

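The 10 genes described here carry out or serve melanin synthesis in the melanosome, the pigment organelle of melanocytes. They are Tyr, Tyrp1, Dct, Mlana, Oca2, Slc45a2, Trpm1, Gpr143, Slc7a11 and Mc1r. Members were the probes whose gene name on the array equals one of these symbols, which gave 15 of 41174 probes and 10 of 27373 gene names. RNA came from whole back skin of male C57BL/6J mice, 8 weeks old at purchase, that received 200 µL per day on the shaved back of 3% MXD (minoxidil, the positive control), 10% N-CE (a cell extract of the cactus Notocactus ottonis) or VC (the propylene glycol, ethanol and water vehicle alone). Skin was taken after 1, 2 and 3 weeks (1W, 2W and 3W), and the RNA of the 6 mice of a group was combined into 1 pool. Every MXD or N-CE pool was set against the VC pool of that week on a dye swap of 2 Agilent arrays, 12 arrays for 6 comparisons. MXD and N-CE of a week share that VC pool and a slide of 4 arrays, so week and slide cannot be told apart. All mice were shaved and the VC mice received the solvent, so a ratio is relative to shaved, solvent-treated skin.

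In mouse skin, hair pigment is made by melanocytes of the follicle bulb and handed to the keratinocytes that build the hair shaft. Pigment production is switched on in anagen, the growth phase of the hair cycle, and stops when the follicle regresses. Tyrosinase starts the pathway from tyrosine, TYRP1 and DCT act on later intermediates of black-brown eumelanin, and MITF is the factor known for switching these genes on through a short promoter element called the M-box. C57BL/6 hair is black, and back skin between the follicles holds few melanocytes.

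The promoters are shown because MITF is known to act on several of these genes through that element. RefSeq promoter sequences (GRCm38.p6, from 250 bases before to 50 after the annotated start) were at hand for 7 of the 10 genes, and those of Mlana, Slc45a2 and Gpr143 were not used here. Capitals mark the M-box TCATGTG, or in Oca2 its core CATGTG read on the opposite strand. Each line is written 5′ to 3′ in the direction of the gene.
Tyr, chr7:87493513-87493561, minus strand: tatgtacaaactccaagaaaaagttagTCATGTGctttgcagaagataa
Tyrp1, chr4:80834139-80834198, plus strand: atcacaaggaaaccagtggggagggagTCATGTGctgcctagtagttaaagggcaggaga
Dct, chr14:118052365-118052424, minus strand: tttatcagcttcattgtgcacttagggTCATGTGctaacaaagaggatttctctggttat
Trpm1, chr7:64153666-64153725, plus strand: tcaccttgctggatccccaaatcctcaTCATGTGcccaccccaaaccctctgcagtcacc
Slc7a11, chr3:50443656-50443715, minus strand: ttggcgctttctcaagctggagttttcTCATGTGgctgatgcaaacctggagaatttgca
Mc1r, chr8:123407003-123407062, plus strand: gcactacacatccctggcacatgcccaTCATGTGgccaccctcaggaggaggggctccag
Oca2, chr7:56239546-56239604, plus strand: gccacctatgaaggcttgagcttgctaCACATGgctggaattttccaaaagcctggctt

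The M-box was found, on either strand, in 6 of the 7 genes, and 3.77% of all 32851 promoters of that length hold it. Its first base lay 22 bases before the start in Tyr, 47 in Tyrp1, 52 in Mc1r, 75 in Slc7a11, 142 in Trpm1 and 151 in Dct. Dct held another on the opposite strand 232 bases before its start. The core CATGTG, which lies inside the M-box, was in all 7 genes and in 14.2% of all promoters. The related E-box CACGTG was found in 1 gene, Trpm1, at its other annotated start, against 7.15% of all promoters. The SOX motif AACAAT was in 0 of the 7 and in 10.7% of all. These are matches of letters in a window and say nothing of binding.

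**Figure D1:**
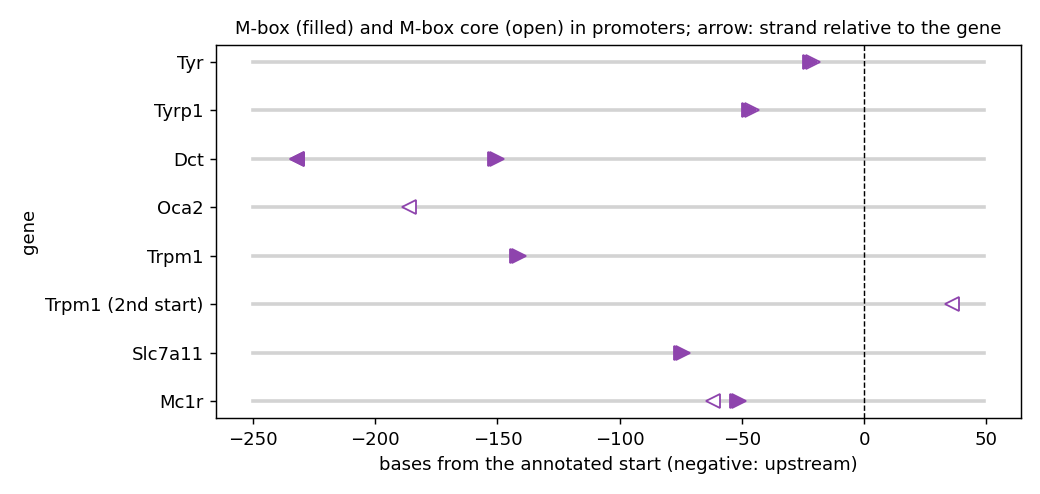
Positions of the M-box (filled) and of its core alone (open) in 8 promoters of 7 pigment genes, in bases from the annotated start (x axis), with 1 promoter per row and arrows for the strand relative to the gene. All filled marks lie upstream of the start, from 22 to 232 bases away.

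The measured pigment genes lay mostly above VC with MXD in every week, far below it with N-CE at 1W and modestly above it with N-CE at 2W and 3W, where few were called. Tyr and Gpr143 were not measured at 1W, and single arrays of Slc7a11 and Gpr143 crossed VC in later weeks. A gene was called where the software's P was below 0.01 on each array, the arrays shared a direction and the mean fold exceeded 1.5 or lay under 0.75. That P describes the spot on the array and not the mice, and a gene counted as measured if it was well above background in at least 1 of the 2 groups. Each gene is given by its probe with the highest mean signal. Since a gene that enters because 1 group is above background is bound to differ, the counts are descriptions.

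With MXD at 1W, 4 of the 8 measured pigment genes were called up (Tyrp1, Dct, Mlana and Oca2), against 1.25% of all measured genes. At 2W the count was 8 of 10 against 6.21%, with Mc1r and Gpr143 the exceptions. At 3W it was 6 of 10 against 0.293%, namely Tyrp1, Dct, Mlana, Oca2, Slc45a2 and Trpm1. No pigment gene was called down with MXD, against 1.26% of all measured genes at 1W, 10.0% at 2W and 0.287% at 3W.

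With N-CE at 1W, all 8 measured pigment genes were called down, against 2.78% of all measured genes called down. Of these 8, Mc1r and Slc7a11 were not well above background in the N-CE pool, so their falls are known only as lower limits. At 2W, Oca2 and Trpm1 were called up, 2 of 10 against 0.118%. At 3W only Mlana was called up among the pigment genes, 1 of 10 against 0.209%. No pigment gene was called up at 1W (0.543% of all genes), down at 2W (0.0752%) or down at 3W (0.214%).

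The median log2 ratio of the measured pigment genes was 0.69 ± 0.04 for MXD 1W, 1.32 ± 0.13 for MXD 2W and 0.70 ± 0.07 for MXD 3W (SD of the medians of 2 arrays). The N-CE medians were -2.31 ± 0.35 in 1W, 0.49 ± 0.09 in 2W and 0.52 ± 0.14 in 3W. The median over all measured genes lay between -0.01 and 0.03 in these comparisons. With normexp background correction and loess in place of the deposited ratios, the N-CE 1W median was -1.39. With Mc1r and Slc7a11 at their bounds in the deposited ratios it was -1.90, and with Tyr and Gpr143 at theirs the MXD 2W median was 1.19. In whole skin, fewer melanocytes and less of an RNA per melanocyte cannot be told apart.

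**Figure D2:**
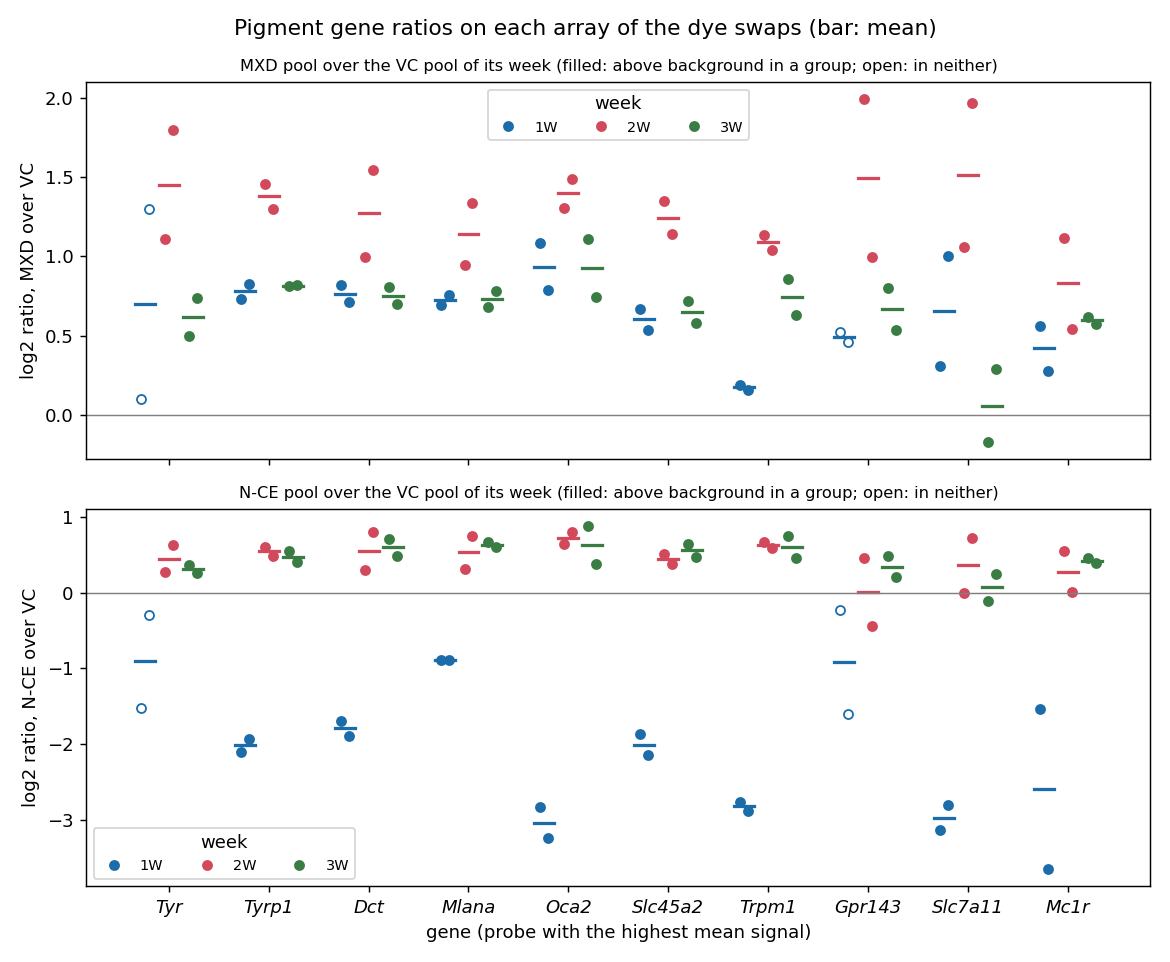
Log2 ratio of treated over VC on each of the 2 dye-swap arrays (points, bar at their mean) for the 10 pigment genes (x axis) in the MXD (upper) and N-CE (lower) comparisons, coloured by week. The measured MXD values lie above 0 but for 1 array of Slc7a11 at 3W, and all measured N-CE values at 1W lie below 0, from -0.89 to -3.65.

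The melanogenic enzymes come first. Tyrp1 stabilizes tyrosinase and acts late in eumelanin synthesis, and its probe lies at chr4:80497125-80497184 (mm9, the build of the array files). Its log2 ratio over VC was 0.73 and 0.82 on the arrays of MXD 1W, 1.46 and 1.30 on those of MXD 2W and 0.81 and 0.82 on those of MXD 3W. It rose 1.72-fold, 2.60-fold and 1.76-fold in these weeks, with the swapped arrays close to each other each time. The N-CE arrays gave -2.10 and -1.93 for 1W, then 0.60 and 0.48 for 2W, and 0.54 and 0.40 for 3W. Tyrp1 RNA therefore fell to 0.247 of VC at 1W with N-CE, while its 1.46-fold and 1.39-fold values of the later weeks did not reach the fold threshold.

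Dct, dopachrome tautomerase, has 2 probes on the array, at chr14:118412048-118412105 and chr14:118438837-118438896 (mm9). The brighter probe read 0.82 and 0.71 with MXD in 1W, then 0.99 and 1.55 in 2W, and 0.81 and 0.70 in 3W. The N-CE readings were -1.70 and -1.89 in 1W, 0.30 and 0.80 in 2W, and 0.71 and 0.49 in 3W. Both probes followed the same course: the other gave means of 0.57, 1.28 and 0.65 with MXD and of -1.69, 0.49 and 0.53 with N-CE. Dct fell to 0.288 of VC with N-CE at 1W by the brighter probe and to 0.309 by the other. The one disagreement was MXD 1W, where only the brighter probe passed the 1.5-fold threshold.

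Tyr, the tyrosinase gene and rate-limiting for melanin, was dim on its probe at chr7:94576265-94576324 (mm9) although the probe is printed 10 times per array. It was below background in both groups of both 1W comparisons, which gives it no measured change there. With MXD at 2W it read 1.11 and 1.79, above background in the MXD pool only, and it rose at least 1.29-fold. At 3W it read 0.50 and 0.74 with MXD and 0.37 and 0.26 with N-CE, and at 2W with N-CE 0.27 and 0.63 (at least 1.09-fold higher), none of them called. At 2W Tyr counted as measured only through the treated pool, so its side of VC there was set by that filter. At 3W both groups were above background, and Tyr lay above VC, as Tyrp1 and Dct did, though it was not called. The MXD 2W call of Tyr is lost with normexp and loess, where its log2 ratio was 0.37, the same value as its bound of 1.29-fold.

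Oca2 and Slc45a2 encode melanosomal membrane transporters that are known for setting the pH in which tyrosinase works. Oca2, probed at chr7:63791667-63791726 (mm9), read 1.09 and 0.78 with MXD in 1W, then 1.31 and 1.49 in 2W, and 1.11 and 0.74 in 3W. Under N-CE the values were -2.84 and -3.25 at 1W, then 0.64 and 0.80 at 2W, and finally 0.88 and 0.38 at 3W. Oca2 rose in all 3 weeks of MXD and at 2W with N-CE, by 1.65-fold, and fell at N-CE 1W to 0.121 of VC. That log2 ratio was -3.04 as deposited and -1.51 with normexp and loess.

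Slc45a2, probed at chr15:10957641-10957700 (mm9), read 0.67 and 0.54 with MXD in 1W, then 1.35 and 1.14 in 2W, and 0.72 and 0.58 in 3W. For N-CE the arrays gave -1.88 and -2.15 in 1W, 0.50 and 0.38 in 2W, and 0.64 and 0.47 in 3W. It rose at MXD 2W and 3W, by 2.37-fold and 1.57-fold, and fell at N-CE 1W. The 1.52-fold value of MXD 1W passed the fold but not the P threshold. The N-CE 1W log2 ratio was -2.01 as deposited and -1.28 with normexp and loess.

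Mlana (MART-1) and Gpr143 (OA1) encode melanosomal membrane proteins of melanosome maturation. Mlana, probed at chr19:29782839-29782898 (mm9), read 0.69 and 0.76 with MXD in 1W, then 0.95 and 1.33 in 2W, and 0.68 and 0.78 in 3W. The N-CE readings were -0.89 on both arrays in 1W, 0.31 and 0.75 in 2W, and 0.66 and 0.60 in 3W. Mlana fell to 0.539 of VC at N-CE 1W, the smallest fall among the 6 genes above background in both pools, whose next array value was -1.70 for Dct. Mc1r and Slc7a11, known there only by bounds, cannot be ranked against it. Mlana was also the only one of the 10 called up at N-CE 3W, by 1.55-fold, although the 1.54-fold value of Oca2 and the 1.52-fold value of Trpm1 were near it.

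Gpr143 was at the edge of detection on its probe, whose target spans chrX:149219656-149220688 (mm9). It was below background in both groups at 1W in both comparisons. At MXD 2W it read 1.99 and 0.99, with a signal above background on 1 MXD array and no VC array, and was not called. At 3W it read 0.80 and 0.54 with MXD and 0.48 and 0.21 with N-CE. Its MXD channel levels overlapped those of VC at 2W and 3W, so no fold is given. At 2W with N-CE its arrays lay on opposite sides of VC, at 0.46 and -0.44. No direction can be read for Gpr143 at that time.

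Mc1r and Trpm1 stand at the cell surface, Mc1r as the melanocortin receptor that drives eumelanin synthesis and Trpm1 as a cation channel of melanocytes. Mc1r, probed at chr8:125932417-125932476 (mm9), read 0.56 and 0.28 with MXD in 1W, then 1.12 and 0.54 in 2W, and 0.61 and 0.58 in 3W. Under N-CE the values were -1.53 and -3.65 at 1W, then 0.55 and 0.0021 at 2W, and finally 0.45 and 0.39 at 3W. It was not called with MXD in any week, though all 6 array values lay above 0, from 0.28 to 1.12. At N-CE 1W it was below background in the N-CE pool on both arrays. It was at least 1.32-fold lower, which is the normexp and loess log2 ratio of -0.41 written as a fold. With that ratio the call was lost.

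Trpm1 read 0.19 and 0.16 with MXD in 1W, then 1.14 and 1.04 in 2W, and 0.85 and 0.63 in 3W on its probe at chr7:71369544-71369603 (mm9). For N-CE the arrays gave -2.77 and -2.88 in 1W, 0.67 and 0.59 in 2W, and 0.75 and 0.46 in 3W. Trpm1 was called up at MXD 2W and 3W and at N-CE 2W, where it was 1.55-fold higher, and down at N-CE 1W, where its log2 ratio was -2.82 as deposited and -2.11 with normexp and loess. Its MXD 1W value of 1.13-fold was the lowest of the 8 measured pigment genes, and both of its arrays lay below every array value of the other 7, the next being 0.28 for Mc1r. The other Trpm1 probe, at chr7:71386308-71386367 (mm9), was below background in all 6 comparisons and measured nothing.

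Slc7a11 encodes xCT, the cystine importer that feeds cysteine to glutathione and to the yellow-red pheomelanin, and many cells besides melanocytes use it. On its brightest probe, at chr3:50170338-50170397 (mm9), it read 0.31 and 1.00 with MXD in 1W, then 1.06 and 1.96 in 2W, and -0.17 and 0.29 in 3W. The N-CE readings were -3.14 and -2.81 in 1W, -0.01 and 0.72 in 2W, and -0.11 and 0.24 in 3W. It therefore rose at MXD 2W, by 2.85-fold, and had arrays on both sides of VC at 3W, where they lay below every MXD array value of the other 8 genes above background in both pools, the lowest of which was 0.50 for Tyr. At N-CE 1W it was not above background in the N-CE pool, and it was at least 1.41-fold lower.

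The other Slc7a11 probes differed in brightness and in what they could show. The probes at chr3:50176047-50176106 and chr3:50169700-50169759 (mm9) gave means of 1.23 and 1.05 at MXD 2W, both called up, and of 0.17 and -0.07 at MXD 3W. At N-CE 1W they gave at least 1.18-fold and 1.24-fold lower values, without a call. The probe at chr3:50246786-50246845 (mm9) was below background in both groups of 5 of the 6 comparisons. The mean over all measured Slc7a11 probes left the 2W rise in place and lost the N-CE 1W call.

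The levels within each channel, after background correction, loess and quantile scaling, can be compared with all 4 VC channels of the week. At MXD 1W all 8 measured pigment genes lay above the range of those channels on both arrays, against 15.4% of all measured genes. At MXD 2W it was 9 of 10 against 21.8%, and at 3W 8 of 10 against 9.49%. At N-CE 1W all 8 lay below the VC range, against 17.4%. At N-CE 2W 6 of 10 lay above it, against 4.58%, and at 3W 8 of 10 against 5.64%. Several N-CE values of 2W and 3W thus stood outside the repeated VC measurements without being called. The 4 channels repeat 1 pool, so this range is technical.

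Tyrp1 shows the course of the levels. Its normalized log2 intensity in VC was 10.51 ± 0.08 in 1W, 10.92 ± 0.12 in 2W and 11.31 ± 0.09 in 3W (SD, n = 4 channels). MXD stood at 11.21 ± 0.02, 12.34 ± 0.0036 and 12.14 ± 0.13 in these weeks, and N-CE at 8.74 ± 0.03, 11.35 ± 0.09 and 11.73 ± 0.01 (SD, n = 2 channels). The ranges of VC did not overlap between weeks, and N-CE 1W lay below all other pools.

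Over the 9 pools, N-CE 1W had the lowest mean level for the 8 pigment genes measured at 1W and VC 1W the next lowest. MXD 2W was highest for 7 of these 8, overlapping N-CE 2W for Mlana and MXD 3W for Slc45a2, and MXD 3W was highest for Mc1r, overlapping MXD 2W. The span from the lowest to the highest pool was 4.19 log2 units for Trpm1, 3.60 for Tyrp1, 3.27 for Oca2 and 3.18 for Dct. For Tyrp1 and Dct, 2 of the 8 pairs of neighbours in this order had overlapping channels, against 6 for Mlana. Tyr and Gpr143, below background at 1W, were not ordered. Levels of different weeks come from different slides.

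The VC pools themselves differed between weeks. Mean VC levels of the 8 pigment genes measured at 1W were lower then than at 2W and 3W, by 1.00 log2 units at 2W for Trpm1 and 0.83 for Slc7a11. From 1W to 2W the VC ranges were apart for 4 genes, Mlana, Slc7a11, Trpm1 and Tyrp1, and overlapped for the other 4 of the 8. The share of all genes was not computed for these VC comparisons, so the counts stand without a background. Tyrp1 rose further to 3W, by 0.79 log2 units over 1W, whereas Trpm1 at 3W differed from 2W by -0.06, within the spread. The rise of VC and the week cannot be told apart from the slide.

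**Figure D3:**
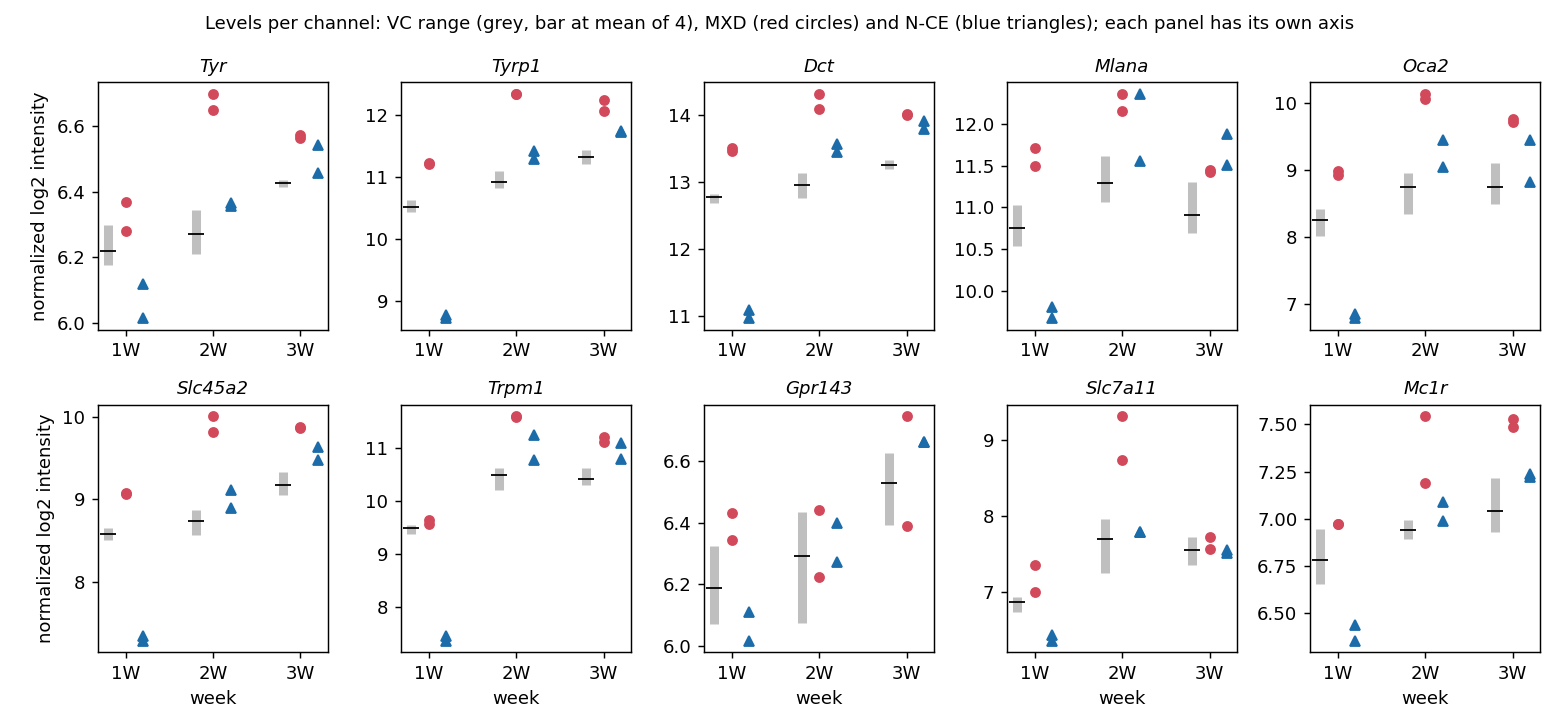
Normalized log2 intensity (y axis, its own scale in each panel) of the 10 pigment genes at 1W, 2W and 3W (x axis), with the range and mean of 4 VC channels (grey), both MXD channels (red circles) and both N-CE channels (blue triangles). The N-CE channels at 1W sit lowest in the panels of the 8 genes measured then, for Tyrp1 at 8.74 against 10.51 in VC, and near or above VC in later weeks.

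MXD and N-CE were compared through the VC pool they share. At 1W the log2 ratio was higher with MXD than with N-CE for all 8 measured pigment genes, while 45.3% of all genes had the higher ratio with MXD. Over the 6 genes above background in every pool of that week the difference had a median of 2.71, and with normexp and loess of 2.27. It was smallest for Mlana, at 1.62 as deposited and 1.57 with normexp and loess, while the largest was 3.98 for Oca2 as deposited and 2.58 for Tyrp1 with normexp and loess. At 2W it was higher with MXD in 10 of 10, by a median of 0.76, against 50.5% of all genes. Tyr and Gpr143 entered MXD 2W only through the MXD pool. Over the 8 genes above background in every pool of 2W the median was 0.70, and with normexp and loess 0.63. At 3W it was higher in 9 of 10 by a median of 0.17, with Slc7a11 at -0.01, against 51.5%. Over the 9 genes above background in every pool of 3W the median was 0.15, and with normexp and loess 0.10. The gap between the treatments was thus widest at 1W and small at 3W.

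Over the weeks, all 8 pigment genes measured at each time had their highest MXD ratio at 2W, as did 43.3% of all genes. The same 8 were above VC in every MXD week, which 19.8% of all genes were. All 8 were below VC at N-CE 1W and above it at 2W and 3W by their means, which 25.3% of genes were. Slc7a11 at N-CE 2W and 3W had arrays on both sides of VC, so its part in that count is within the spread.

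limma's moderated test over the 3 weekly log2 ratios, with weeks standing in for replicates, was the one test across pools that the design allowed. With Benjamini-Hochberg adjustment it called 0 of 41068 probes for MXD, 0 of 40895 for N-CE and 0 of 40820 for MXD minus N-CE, which is 0% in each. At an unadjusted p under 0.05 it had 3098, 1490 and 2021 probes, of which 9, 0 and 1 were among the 15 pigment probes. Tyr and Gpr143 were among the 9, and Gpr143 was the 1. The fit used their 1W ratios although both were below background in both groups then. By limma, Oca2 averaged 1.09 ± 0.14 over the MXD weeks (SE, n = 3 weeks, adjusted p = 0.626) and Mlana 0.87 ± 0.12 (SE, adjusted p = 0.626). For N-CE, where 1W opposes the other weeks, Oca2 averaged -0.56 ± 1.07 and Tyrp1 -0.33 ± 0.73 (SE, limma adjusted p = 1 for each).

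The other pigment genes on the list, 39 in all, did not move as one. Of 37 measured, 1 was called up at MXD 1W (1.25% of all genes), 10 at 2W (6.21%) and 2 at 3W (0.293%), and 4 were called down at N-CE 1W (2.78%). None was called at N-CE 2W (of 35 measured) or 3W (of 37). Their median log2 ratio was 0.23 at MXD 2W and -0.02 at N-CE 1W, far nearer 0 than that of the 10 genes above.

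Slc24a5 and Pmel followed the melanogenic enzymes. Slc24a5, a melanosomal cation exchanger, had log2 ratios of 0.69 ± 0.14, 1.37 ± 0.21 and 0.77 ± 0.16 over the MXD weeks (SD, n = 2 arrays) and fell by 2.14 ± 0.20 at N-CE 1W, where normexp and loess gave -1.26. Pmel, which forms the fibrils on which melanin is laid down, rose by 1.04 ± 0.10 at MXD 2W and 0.66 ± 0.01 at 3W and fell by 1.81 ± 0.35 at N-CE 1W. Both were above VC at N-CE 2W and 3W without a call, at 0.49 and 0.53 for Slc24a5 and 0.43 and 0.50 for Pmel.

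Genes of cysteine and glutathione supply, which pheomelanin synthesis draws on, were called up at MXD 2W in 5 of 5, against 6.21% of all genes. Ggt1, a glutathione-cleaving enzyme, rose by 1.32 ± 0.15 and Cth, which makes cysteine, by 1.24 ± 0.13, while Gclm and Slc3a2 (the partner chain of xCT) rose by 0.88 ± 0.25 and 0.77 ± 0.29. At N-CE 1W Ggt1 was at least 1.58-fold lower, being below background in that pool, and Gclc fell by 0.71 ± 0.14. The other 3 were not called there. These genes serve many cell types, as Slc7a11 does, and none of the 5 was called at MXD 1W or 3W.

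Genes that sort cargo to melanosomes and move them had medians near VC. None of the 14 sorting genes, among them the Hps genes and subunits of AP-3 and BLOC-1, was called in any comparison, and their medians lay between -0.05 and 0.08. Of all genes, 0.118% to 6.21% were called up and 0.0752% to 10.0% down per comparison, so calls were rare in most comparisons. Of the 6 movement genes, only Mlph, the melanophilin that tethers melanosomes to myosin, was called, up at MXD 2W by 1.02 ± 0.37 (6.21% of all genes). Edn1, a keratinocyte-derived melanocyte growth factor, was the one ligand called, up by 0.89 ± 0.11 at MXD 2W (6.21% of all genes).

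The melanocyte lineage list of 7 genes, regulators and receptors rather than pigment machinery, moved less. Its median log2 ratio was 0.92 at MXD 2W, where 6 of 7 were called up against 6.21% of all genes, and between 0.19 and 0.23 in the other MXD and later N-CE weeks without a call. Mitf, the master regulator of melanocytes, read 0.35 ± 0.10 at MXD 1W, 0.92 ± 0.23 at 2W and -0.11 ± 0.11 at 3W. At N-CE 1W, where the pigment genes had their median at -2.31, the lineage median was -0.35, with Mitf at -0.23 ± 0.03 and Kit at -0.35 ± 0.07. Sox10 alone lay above VC there, at 0.14 ± 0.27. Of the 7 genes, 1 was called down, against 2.78% of all genes. That one was Lef1, at -1.92 ± 0.02, which hair matrix keratinocytes express as well. The summed level of the list at N-CE 1W ran from 3853 to 4019 normalized intensity units, against 4664 to 5004 in VC, a sum that includes genes other skin cells use as well.

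Hair follicle keratinocyte genes moved in the same direction as the pigment genes at MXD 1W, MXD 2W and N-CE 1W. Of 11 hair shaft keratins, 10 were on the array, and all 10 were called down at N-CE 1W (2.78% of all genes), with a median of -2.35. With normexp and loess that median was -2.22, against -1.39 for the pigment genes, so the 2 lists lay apart there. The summed level of the keratins at N-CE 1W was 10307 to 13323, against 58668 to 65145 in VC. At MXD 1W 4 of 10 were called up (1.25% of all genes) with a median of 0.63, at MXD 2W 10 of 10 (6.21%) with a median of 1.34. All 6 hair matrix regulators likewise were called up at MXD 2W, with a median of 1.23, and down at N-CE 1W, with a median of -1.72 as deposited and -0.84 with normexp and loess. Lef1 is in this list and in the melanocyte lineage list. The part of follicle content in the pigment gene ratios was not tested.

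The medians of the lists lay apart at 3W. At MXD 3W the pigment genes had a median of 0.70 with 6 of 10 called up (0.293% of all genes). The hair shaft keratins had a median of 0.29 ± 0.03 with 0 of 10 called, and the matrix regulators 0.20 ± 0.06 with 0 of 6. At N-CE 3W the medians were 0.52 ± 0.14 for the pigment genes, 0.09 ± 0.12 for the 9 keratins measured and 0.20 ± 0.15 for the regulators. These differences between lists were not tested across pools.

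**Figure D4:**
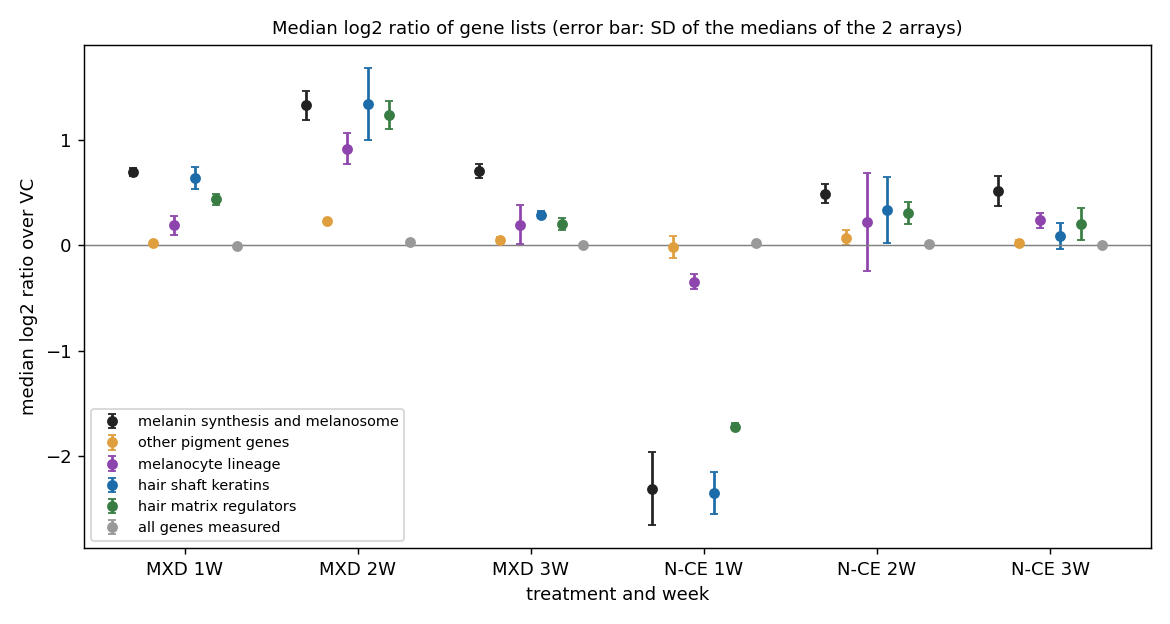
Median log2 ratio over VC (y axis) of the 10 pigment genes, of 4 further gene lists and of all measured genes in each treatment and week (x axis), with error bars for the SD of the medians of the 2 arrays. In these deposited ratios the pigment genes lie beside the hair shaft keratins at MXD 1W, MXD 2W and N-CE 1W, and above them at MXD 3W, at 0.70 against 0.29. With normexp and loess the N-CE 1W medians were -1.39 for the pigment genes and -2.22 for the keratins.

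Other cells of the skin moved differently. Skeletal muscle markers, from the muscle under the skin, were called down in 4 of 5 at MXD 1W (1.26% of all genes called down) and in 6 of 6 at MXD 2W (10.0%), with medians of -0.79 and -1.45, and their summed level at MXD 2W was 89260 to 143030 against 242755 to 297653 in VC. At N-CE 1W they had a median of -0.19 without a call. Epidermal keratins and loricrin had medians of -1.17 at MXD 2W, with 3 of 5 called down, and of 0.14 at N-CE 1W without a call. Dermal collagen genes and decorin gave -0.84 at MXD 2W, with 2 of 4 called down, and 0.02 at N-CE 1W. Schwann cell markers, which share an origin with melanocytes, had medians of -0.69 at MXD 2W, with 2 of 6 called down, and 0.25 at N-CE 1W without a call. Adipocyte markers gave -0.64 at MXD 2W, with 2 of 4 called down, and 0.31 at N-CE 1W. Macrophage and neutrophil markers had a median of 0.33 at MXD 1W, with 2 of 7 called up (1.25% of all genes). These were S100a8 at 2.89 and S100a9 at 2.51, while the others lay between -0.03 and 0.43. Their median at MXD 2W was -0.34, with 2 of 7 called down (10.0%) and 1 up (6.21%). At N-CE 1W it was 0.28, with 1 of 7 called up (0.543%), S100a9. The part of tissue composition in the pigment gene ratios was not tested.

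Among 1093 genes that were above background in both groups of all 6 comparisons and ranged over at least 1.5 log2 units, those outside the 10 with the profile most like the pigment gene median were Slc24a5 (Pearson r = 0.9996 over the 6 comparisons), Pmel (0.9991), Cdca3 (0.9985), Aurkb (0.9983), Cps1 (0.9981), Sgol1 (0.9981), Birc5 (0.998) and Mki67 (0.998). The 6 points share VC pools within a week, and the N-CE 1W point lies far from the rest. Of the 10 genes, Dct, Slc45a2, Tyrp1, Mlana, Oca2 and Trpm1 passed this filter. They help make the median, so a high r is built in for them. It was 0.9999 for Dct and 0.983 for Trpm1, whose MXD 1W ratio was low. Mki67 had log2 ratios of 0.50, 0.91 and 0.42 with MXD and of -1.20, 0.42 and 0.41 with N-CE, a smaller range than Tyrp1.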

How the data were processed

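Whole back skin RNA was measured on 2-colour Agilent 4x44K arrays. The authors deposited Feature Extraction output per array (version 12.0.3.1 per the file headers, 11.0.1.1 per the labels; mm9) and a series matrix. The deposited log10 ratio is Cy5 over Cy3 after background subtraction and LOWESS, the deposited p-value comes from the software's spot error model, and the intensity of each channel was deposited raw and processed by the authors. The matrix equals log10 of the processed ratio at all 43379 transcript spots within 1e-05. Between 57.0% and 69.6% of spots per channel were well above background, 143 to 355 spots per array marked as outliers were left out, and 0 were saturated. With 12 arrays and 1 pool per group, the number of pools limits precision, and the SD over a dye swap is technical.

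Ratios were turned to treated over VC, converted to log2 and averaged over spots and then arrays. Channel levels came from normexp (offset 50), loess and Aquantile. A gene below background in 1 group is given as a bound from means of normalized channel levels over the balanced dye swap. The other group was set against the lowest signal well above background or the gene's own level, whichever was higher on each array. For Tyr at 2W and for Mc1r, Ggt1 and the brightest Slc7a11 probe at N-CE 1W, this was the gene's own level. Their bounds are therefore the normexp and loess ratios themselves. Python 3.11.15, numpy 2.4.6, pandas 2.3.3, R 4.3.3 and limma 3.58.1 were used, and the steps were tested on simulated data. Members and lists were chosen with earlier results of these data known. Genes named beyond the 10 were the 3 highest and 3 lowest called of the other pigment genes per comparison, at most 3 of a marker list, and the 8 most like the median. Mlph was named outside this rule, as the only movement gene called, and Sox10 as the only lineage gene above VC at N-CE 1W. Asip was not above background. Alternatives covered background correction, matrix values, outlier spots, centring, probe averaging, single arrays, dim probes, thresholds, the slide as a block and left-out weeks.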

Additional observations from a re-analysis of the deposited data

Results flagged for a closer look

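All 8 measured pigment genes ran in opposite directions with MXD and with N-CE at 1W on every array. The share of all genes that did so was not computed, so this count stands without a background. The log2 ratio with MXD minus that with N-CE was 2.80 for Tyrp1, 2.56 for Dct, 1.62 for Mlana, 3.98 for Oca2, 2.62 for Slc45a2, 3.00 for Trpm1, 3.63 for Slc7a11 and 3.01 for Mc1r. Each treatment is 1 pool, so these differences were not tested, and those of Slc7a11 and Mc1r rest on an N-CE signal below background and were 0.85 and 0.62 with normexp and loess.

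For 7 of these genes both N-CE arrays lay below VC at 1W and above it at 2W. The share of all genes doing so on both arrays was not computed. By their means, 25.3% of all genes were below VC at N-CE 1W and above it at 2W and 3W. The 2W ratio exceeded that of 1W by 2.56 for Tyrp1, 2.34 for Dct, 1.42 for Mlana, 3.76 for Oca2, 2.45 for Slc45a2, 3.45 for Trpm1 and 2.87 for Mc1r. The same 7 reversed between 1W and 3W, by 2.49 for Tyrp1, 2.39 for Dct, 1.52 for Mlana, 3.67 for Oca2, 2.57 for Slc45a2, 3.43 for Trpm1 and 3.01 for Mc1r. These differences were not tested either, and week and slide cannot be told apart.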

How the results depend on the processing

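The limma fit of MXD minus N-CE pairs the treatments by week. Within a week, no paired analysis was possible because each group is 1 pool. The counts of called pigment genes stayed within 1.5 times under normexp and loess, matrix values, retained outlier spots, centred arrays, probe means, the filter on dim probes and symmetric folds. With a fold of 2, the counts called up were 0 at MXD 1W, MXD 3W, N-CE 2W and N-CE 3W, and with no P threshold N-CE 3W had 4. On single arrays the count called up ran from 3 to 5 at N-CE 2W and from 1 to 5 at N-CE 3W, and at N-CE 1W 8 were down on either array. The share of all genes called was not computed under these alternatives, so these counts stand without a background. Of 435 alternative log2 ratios of the 10 genes, 0 of those called changed sign and 26 moved by more than the dye-swap SD. Single arrays and the filter on dim probes could not pass that SD or reverse a called ratio, by construction. Matrix values equal the processed ratios, so the count says little for these 3 kinds of alternative. The N-CE 1W median ran from -1.39 to -2.48. The dim probes limit Tyr, Gpr143, Mc1r and Slc7a11. The limma counts were 0 under all its alternatives, the slide as a random block and left-out weeks included.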
